A study of Mus musculus with 4 samples.

Results

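Heme breakdown and iron handling were followed through 10 genes, *Hmox1*, *Hmox2*, *Blvra*, *Blvrb*, *Fth1*, *Ftl1*, *Ncoa4*, *Ireb2*, *Tfrc* and *Slc40a1*, by taking every non-control probe that the array files name for them. This gave 16 of the 39429 probes on each array, several for 5 of the genes and 1 for the other 5. RNA came from NIH-3T3:Per2-Luc, an established mouse fibroblast line that carries a luciferase reporter driven by the *Per2* promoter. One condition was a control given fresh medium with 0 mM H2O2, labelled 4 h, and the others were cells taken 4 h, 20 h and 32 h after a pulse of 5 mM H2O2 for 10 min (cOS-pulse, for critical oxidative stress, a dose at the border of cell survival). Each condition had 1 one-color array and all 4 arrays were on 1 slide, so there were no replicates, no test was run, and the errors given come from the scanner software's model of each spot and do not cover the spread between cultures. All comparisons with the control share its single array, and since that array is labelled 4 h, hours in culture and cOS-pulse cannot be told apart at 20 h and 32 h. In bulk RNA, fewer cells of a kind and less RNA per cell cannot be told apart either.

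Heme oxygenases open the heme ring and release iron, carbon monoxide and biliverdin, which biliverdin reductases turn into bilirubin. The freed iron is stored in ferritin, a shell of heavy and light chains, or leaves the cell through ferroportin, while new iron enters mainly with transferrin through the transferrin receptor. Iron regulatory proteins bind hairpins in the mRNAs of several of these genes and set their translation or stability, and *Hmox1* is a classic gene of the oxidative stress response in fibroblasts.

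Signals are given as relative signal, the background-corrected signal of a probe divided by the 75th percentile of all probes of its array, so that 1 is the 75th percentile, and only values of 1 probe are compared between arrays. Differences are log2 ratios of relative signals, with the spot error after ±. Of the probes on each array, 53.4%, 59.1%, 55.2% and 52.7% were well above background, in the order control, 4 h, 20 h and 32 h, and no spot was saturated. The fibroblast markers were well above background on every array in 9 of 9 cases, among them *Col1a1*, *Vim* and *Pdgfrb*. Of the markers of erythroid cells, which are rich in heme, 0 of 6 were so in the control and at 32 h and 1 of 6, *Hba-a1*, at 4 h and 20 h. Of the markers of macrophages, which recycle iron, *Csf1r* and *Itgam* were so on every array and the other 4 of 6 on none. 15 of the 16 member probes were well above background on all 4 arrays, the exception being 1 of the *Tfrc* probes.

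Probes for the heme oxygenases and for the biliverdin reductase gene *Blvra* are shown because *Hmox1* moved in the opposite direction to *Hmox2* and *Blvra*, so that what each probe reads matters. The *Ireb2* probe, which was higher at 4 h, is shown beside them. All are 60-base probes printed in the sense of the mRNA. *Hmox1* probe 2 is placed at chr8:77620797-77620856, *Hmox2* probe 2 at chr16:4764971-4765030, *Blvra* probe 2 at chr2:126912587-126912646 and *Ireb2* at chr9:54756566-54756625 in mm9. Whether these bases lie in coding or other exon sequence was not given in the sources used here.
Hmox1 probe 2: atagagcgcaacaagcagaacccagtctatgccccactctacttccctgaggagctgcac
Hmox2 probe 2: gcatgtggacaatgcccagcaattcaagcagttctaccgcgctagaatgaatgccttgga
Blvra probe 2: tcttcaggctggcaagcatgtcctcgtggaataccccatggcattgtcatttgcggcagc
Ireb2: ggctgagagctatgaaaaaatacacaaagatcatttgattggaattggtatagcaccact
No *Hmox1* probe shared more than 7 bases in a row with an *Hmox2* probe, and over all 120 pairs of member probes the longest shared run was 10 bases.

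At 4 h, the inducible and the constitutive heme oxygenase stood on opposite sides of the control, with *Hmox1* far above it and *Hmox2* below it. Ferroportin, IRP2 and 1 of the ferritin light chain probes were also at least 2-fold higher. That ferritin probe stayed under 2-fold with each of the 5 other scalings (log2 ratios of 0.60 to 0.89). By 20 h and 32 h every member probe with a ratio but that of ferroportin was within 2-fold of the control, and ferroportin was 2.94-fold and 3.50-fold below it. Of the 16 member probes, 5 (of 4 genes) were at least 2-fold higher at 4 h and 3 (of 2 genes) at least 2-fold lower, where 11.1% and 8.13% of all probes well above background on 1 array or both passed the same limits. At 20 h, 0 of 15 were at least 2-fold higher and 1 was lower, against 1.35% and 3.30% of all probes. At 32 h the counts were 0 and 1 of 15, against 2.07% and 2.59%. The median log2 ratio of the 15 probes measured on both arrays was 0.86 at 4 h, -0.056 at 20 h and 0.0036 at 32 h, and over all probes it was 0.17, -0.0034 and -0.0062. At 4 h, 14 of these 15 ratios were larger in size than their spot error, 10 above and 4 below the control, and at 20 h and 32 h 6 and 5 were. Ratios of this size were common on the arrays. Over all probes the median size of the log2 ratio was 0.45 at 4 h and 0.19 at 20 h and at 32 h. The median spot error was 0.20, so these counts do not set the members apart.

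**Figure D1:**
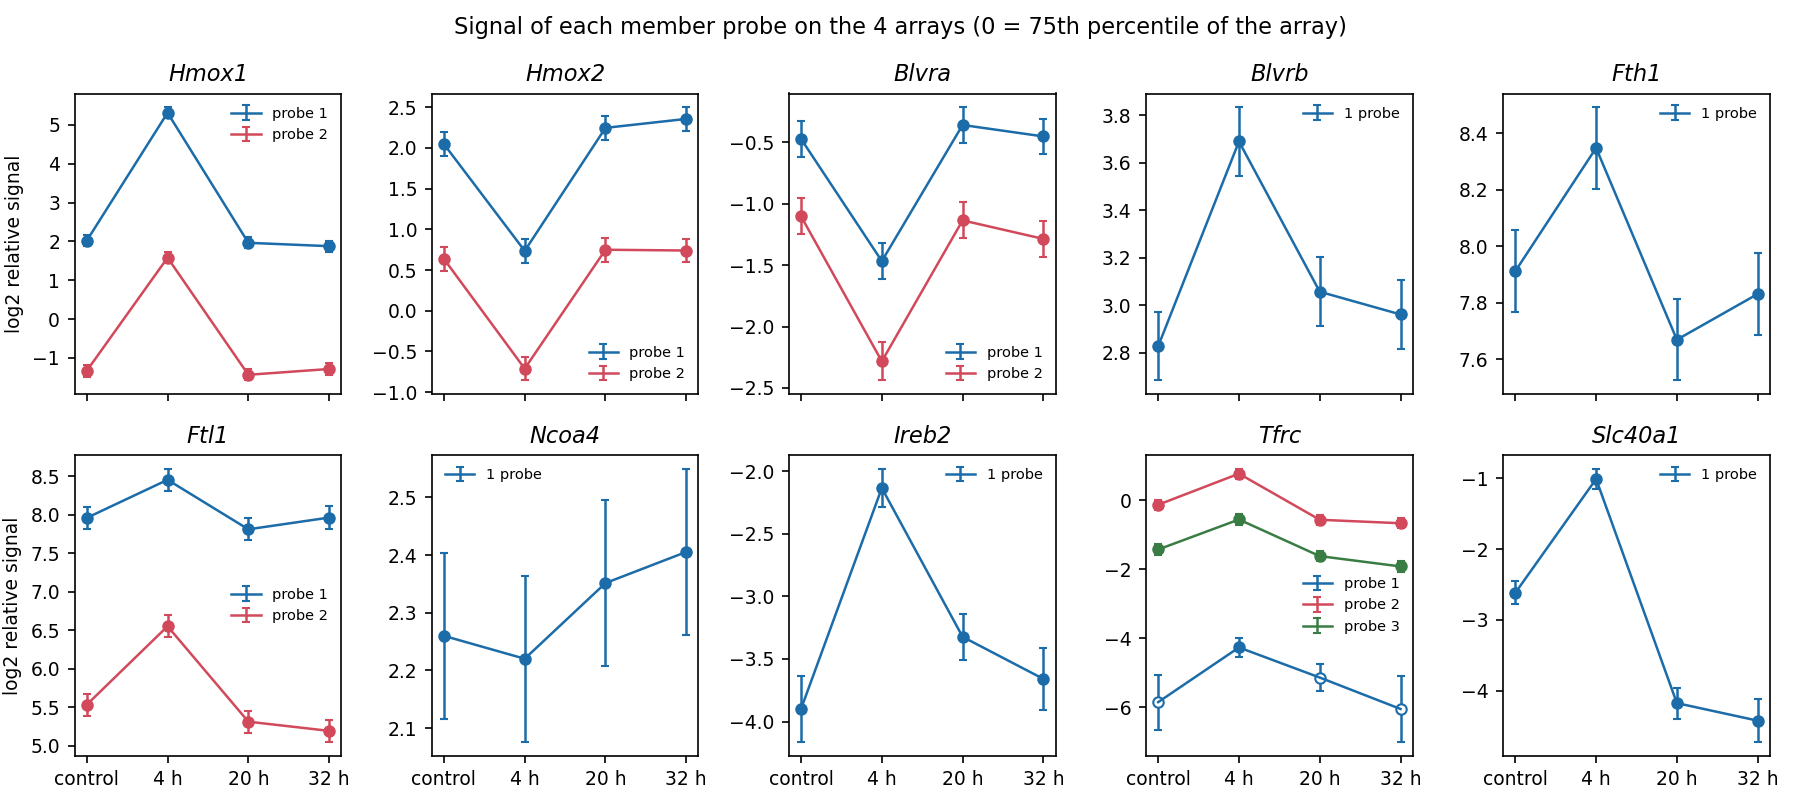
Relative signal on the log2 scale (vertical axis, 0 is the 75th percentile of the array, each panel with its own range) of every member probe on the control, 4 h, 20 h and 32 h arrays, with bars for the spot error and open points where a probe was not well above background. *Hmox1* peaks at 4 h at 39.8 and 2.99, the *Hmox2* and *Blvra* probes dip there, and *Slc40a1* is highest at 4 h and lowest at 32 h.

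*Hmox1* encodes heme oxygenase 1, the inducible enzyme that degrades heme. Its probe 1 had a relative signal of 4.06 in the control, 39.8 at 4 h, 3.90 at 20 h and 3.68 at 32 h. Its probe 2 had 0.398, 2.99, 0.370 and 0.410 in the same order. Both probes were thus high on the 4 h array alone, by log2 ratios of 3.29 ± 0.20 (9.80-fold) and 2.91 ± 0.21 (7.53-fold), which placed them 45th and 67th of 20392 probes measured on both arrays. On the control, 20 h and 32 h arrays their levels lay within a spot error of each other, with log2 ratios over the control of -0.056 and -0.10 at 20 h and -0.14 and 0.046 at 32 h, some of which changed sign with the scaling. Under 5 other scalings of the arrays the 4 h ratios were 2.89 to 3.17 for probe 1 and 2.51 to 2.88 for probe 2.

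*Hmox2* encodes heme oxygenase 2, the isoform that most cells make without stress. The relative signal of its probe 1 was 4.13 in the control, 1.66 at 4 h, 4.74 at 20 h and 5.12 at 32 h, and that of probe 2 was 1.55, 0.611, 1.68 and 1.67. The 4 h array was the lowest for both, with log2 ratios of -1.31 ± 0.20 (2.48-fold lower) and -1.35 ± 0.21 (2.54-fold lower) that differed by 0.036 between the probes. At 20 h the ratios were 0.20 and 0.11, and at 32 h 0.31 ± 0.20 and 0.10 ± 0.20. With this scaling only the value of probe 1 at 32 h thus exceeded its spot error. With the others the ratios were 0.19 to 0.53 and 0.099 to 0.44 at 20 h, and 0.30 to 0.49 and 0.094 to 0.28 at 32 h. Other scalings left both probes at least 2-fold lower at 4 h (-1.71 to -1.34 and -1.75 to -1.35).

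The 2 biliverdin reductases also stood apart at 4 h. *Blvra*, biliverdin reductase A, which makes the main form of bilirubin, had relative signals of 0.720, 0.362, 0.779 and 0.730 by probe 1 and of 0.465, 0.206, 0.455 and 0.410 by probe 2, from the control to 32 h. The 4 h array was the lowest for both, at log2 ratios of -0.99 ± 0.21 and -1.18 ± 0.21, and the other 3 arrays were close together. With every other scaling probe 1 also passed 2-fold (-1.40 to -1.04), whereas with normexp background correction both fell short of it (-0.81 and -0.85). *Blvrb*, biliverdin reductase B, which also reduces flavins, had relative signals of 7.10, 12.9, 8.32 and 7.79. It was highest at 4 h, with a log2 ratio of 0.86 ± 0.20 (0.46 to 0.74 with other scalings), and at 20 h and 32 h it lay 0.23 and 0.13 above the control.

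Ferritin probes gave a strong signal on every array, and the brightest, *Fth1* and *Ftl1* probe 1, moved less. Without scaling their 4 h log2 ratios were 0.16 and 0.21, and that of the dimmer *Ftl1* probe 2 was 0.74. Whether probes this bright follow the amount of RNA in proportion was not tested. *Fth1*, the heavy chain with ferroxidase activity, had relative signals of 241 in the control, 326 at 4 h, 204 at 20 h and 228 at 32 h, so the 4 h array was the highest by a log2 ratio of 0.44 ± 0.20. This value depended on the scaling and was 0.033 when the arrays were set by their spike-in probes. *Ftl1*, the light chain that helps to build the iron core, had 249, 350, 224 and 249 by probe 1 and 46.4, 93.8, 39.8 and 36.6 by probe 2. Both were highest at 4 h, but by unequal log2 ratios of 0.49 ± 0.20 and 1.02 ± 0.20, a gap of 0.52. The larger ratio passed 2-fold only with this scaling and was 0.60 to 0.89 with the 5 others, and the smaller one was 0.091 to 0.37, below its spot error with 3 of them. At 32 h probe 1 lay at the control (0.0036) and probe 2 below it (-0.34 ± 0.20). *Ncoa4*, the receptor that carries ferritin to the lysosome for iron release, had relative signals of 4.79, 4.66, 5.10 and 5.30. With this scaling they differed by no more than 1.14-fold over the 4 arrays and cannot be ordered beyond their spot errors. With the 5 others the log2 ratio of *Ncoa4* over the control was -0.44 to -0.16 at 4 h. At 20 h it was then 0.074 to 0.42 and at 32 h 0.14 to 0.32, so its flatness depended on the scaling.

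*Ireb2* encodes iron regulatory protein 2, which binds the hairpins of ferritin and transferrin receptor mRNAs when iron is low. Its relative signal was 0.0671 in the control, 0.228 at 4 h, 0.0999 at 20 h and 0.0791 at 32 h. The 4 h array was clearly the highest, with a log2 ratio of 1.76 ± 0.31 (3.40-fold) that was 1.36 to 1.64 with other scalings and 1.12 with normexp background correction. The later ratios, 0.58 ± 0.32 and 0.24 ± 0.36, came from a dim probe, and normexp correction brought them to 0.016 and 0.019.

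*Tfrc*, the transferrin receptor, was read by 3 probes, of which probe 2 was printed on each array in 10 spots and 1 control spot was left out by the outlier flag. Its relative signal was 0.912 in the control, 1.70 at 4 h, 0.675 at 20 h and 0.630 at 32 h. The single spots ranged from 0.872 to 0.954, from 1.67 to 1.81, from 0.643 to 0.721 and from 0.595 to 0.670, so the 4 h and the control spots overlapped with no other array and those of 20 h and 32 h overlapped with each other. The log2 ratios over the control were 0.90 ± 0.20, -0.43 ± 0.21 and -0.53 ± 0.21, and taken spot by spot their SD was 0.034, 0.049 and 0.063 over 9 spots of the same arrays, several times smaller than the error that the scanner software gave. Probe 3 had relative signals of 0.372, 0.679, 0.326 and 0.265 and followed the same order, with log2 ratios of 0.87 ± 0.21, -0.19 ± 0.21 and -0.49 ± 0.21. Neither probe reached 2-fold at any time. Over the scalings the ratio of probe 2 kept its sign at each time (0.50 to 0.90, -0.45 to -0.10 and -0.54 to -0.36), while that of probe 3 at 20 h did not. Probe 1 had 0.0174, 0.0521, 0.0285 and 0.0152 and was well above background at 4 h alone. With this scaling it was then at least 1.41-fold higher than the control, a lower bound of 0.50 on the log2 scale. With 4 of the other scalings this bound was 0.094 to 0.37, and the remaining scaling gave no ratio. The bound leaves out the spot error of probe 1, which was 0.26 at 4 h.

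**Figure D2:**
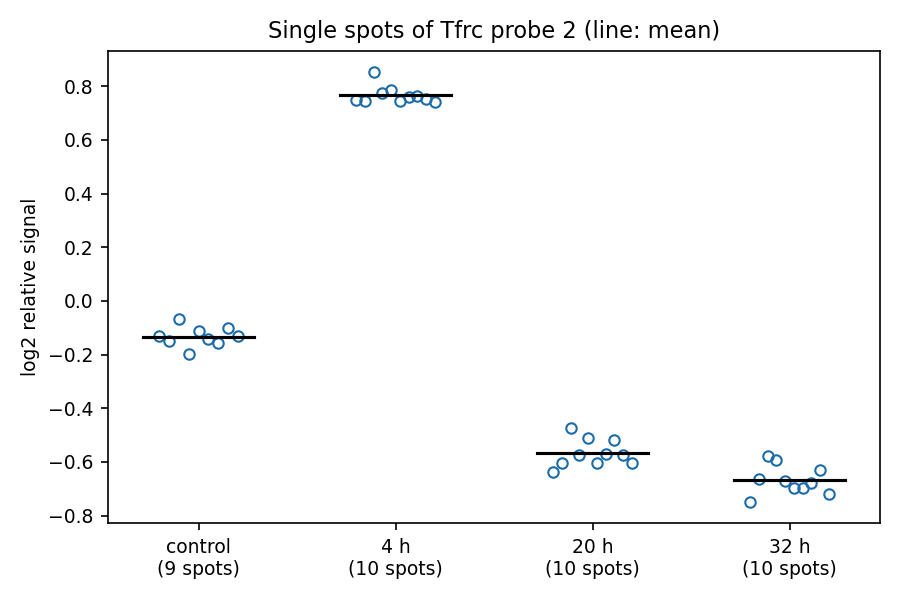
Log2 relative signal (vertical axis) of the single spots of *Tfrc* probe 2 on each array, 9 in the control and 10 on the others, with a line at the mean. The spots are repeats on 1 array and not cultures; those at 4 h lie above all others, and those at 20 h and 32 h lie below the control and overlap.

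*Slc40a1* encodes ferroportin, the only known iron exporter of mammalian cells. Its single probe (chr1:45965255-45965314 in mm9) had a relative signal of 0.163 in the control, 0.496 at 4 h, 0.0553 at 20 h and 0.0466 at 32 h. It was thus highest at 4 h and lowest at the late times, which did not differ beyond their spot error (0.25 ± 0.37 for 20 h over 32 h), and the highest and lowest arrays lay 3.41 apart on the log2 scale. The log2 ratio over the control was 1.61 ± 0.22 (3.05-fold higher) at 4 h, -1.56 ± 0.27 (2.94-fold lower) at 20 h and -1.81 ± 0.34 (3.50-fold lower) at 32 h. At 20 h only 0.557% and at 32 h only 0.230% of all measured probes had a lower ratio. With the other scalings it was 1.21 to 1.56, -1.57 to -1.23 and -1.82 to -1.63. The late signals were dim, near the lowest that passed as well above background, and normexp correction brought the ratios to 1.26, -1.10 and -0.99, the last just short of 2-fold. Of 19697 probes well above background on all arrays, 10 (0.0508%) were at least 2-fold higher at 4 h and at least 2-fold lower at both late times, *Slc40a1* among them. This count takes the pattern of *Slc40a1* itself as its rule and its 3 ratios share the control array. The share is therefore a description only.

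**Figure D3:**
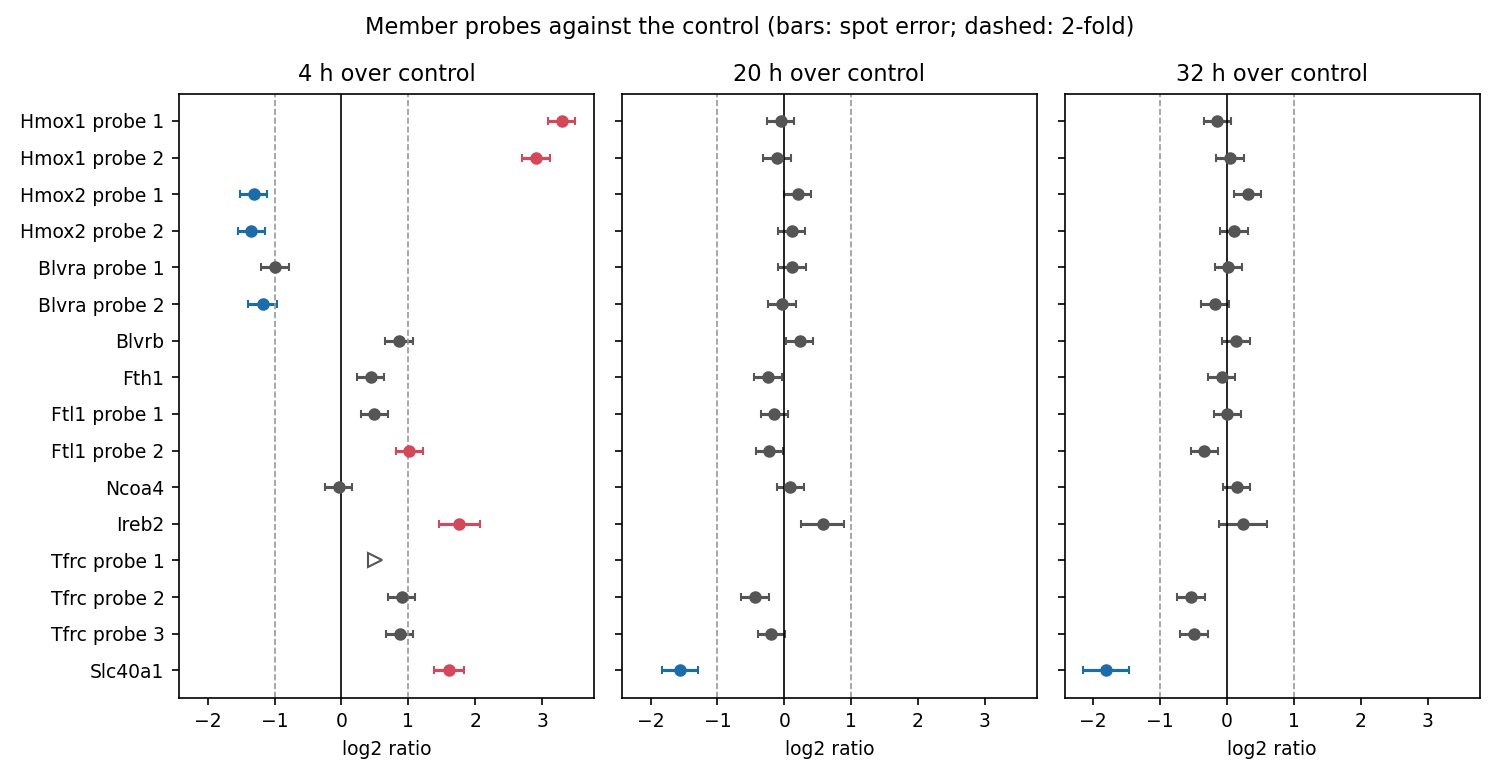
Log2 ratio over the control (horizontal axis) of each member probe at 4 h, 20 h and 32 h, with bars for the spot error, dashed lines at 2-fold, red for at least 2-fold higher and blue for at least 2-fold lower. The open triangle is the lower bound of *Tfrc* probe 1. At 4 h 5 probes lie beyond the upper and 3 beyond the lower line, and at 20 h and 32 h *Slc40a1* alone lies beyond a line.

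Between 20 h and 32 h, the pair of times that the study set side by side for circadian change, 0 of 15 member probes differed 2-fold in either direction, against 0.880% of all probes higher and 1.88% lower at 20 h. The ratios ran from -0.16 for *Fth1* to 0.34 ± 0.31 for *Ireb2*. Over all probes the median size of the log2 ratio was 0.096, below the median spot error of 0.20. Of the 15, 13 were within their spot error, and the exceptions were *Ireb2* and *Tfrc* probe 3 (0.30 ± 0.21), both higher at 20 h. With normexp correction these were -0.0029 and 0.18, inside their spot errors.

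**Figure D4:**
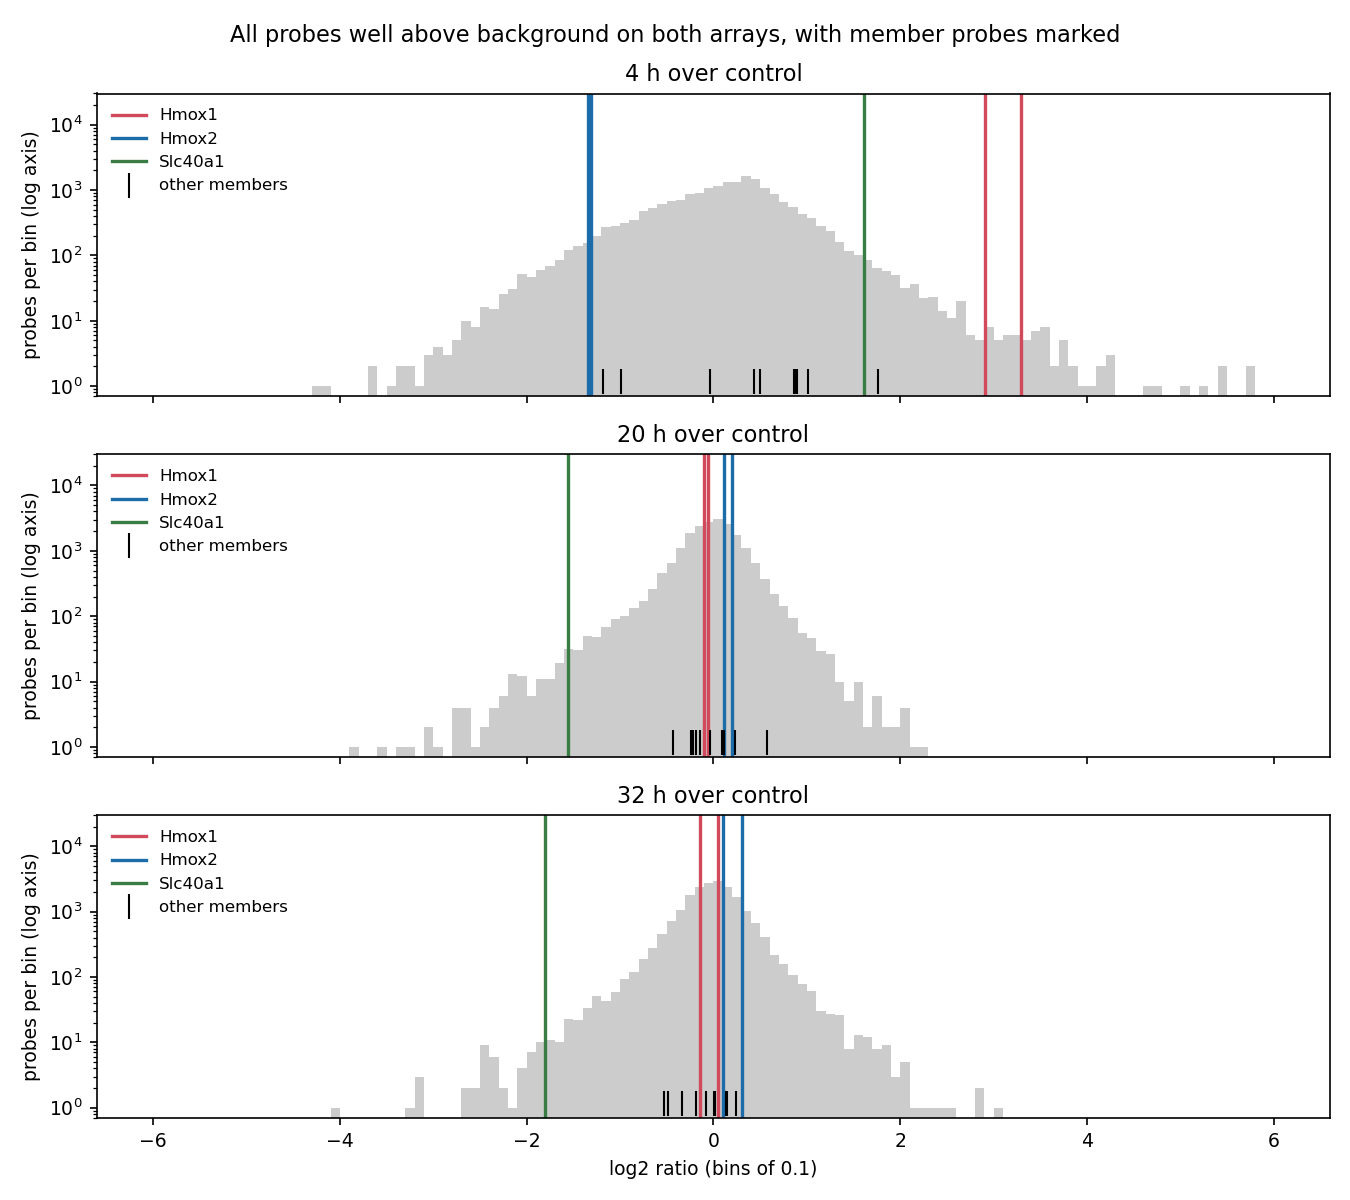
Number of probes (vertical log axis, bins of 0.1) by log2 ratio over the control (horizontal axis) at 4 h, 20 h and 32 h, for every probe that passed as well above background on the pair of arrays, with colored lines for *Hmox1*, *Hmox2* and *Slc40a1* and black ticks for the other members. At 4 h *Hmox1* lies in the far upper tail at 2.91 and 3.29, and at 20 h and 32 h it lies at the center while *Slc40a1* lies in the lower tail at -1.56 and -1.81.

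The wider pathway was read through 74 other genes in 7 lists, 71 of them on the array, with the brightest probe of each gene. At 4 h, 6 of the 61 well above background on 1 array or both were at least 2-fold higher and 13 at least 2-fold lower, against 11.0% and 8.21% of all gene names. At 20 h the counts were 0 and 0 of 58, against 1.44% and 3.51%, and at 32 h 3 and 0 of 60, against 2.24% and 2.77%. Another scaling moved the median of all probes at 4 h by -0.12 to -0.40 on the log2 scale, at 20 h by up to 0.33 and at 32 h by up to 0.18, and at each time 2 of the 7 list medians changed sign with a scaling.

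Genes of heme synthesis had the lowest median of the 7 lists at 4 h. All 9 that were well above background lay below the control, as did 6718 of the 18506 gene names with a ratio. Of the 9, 5 were at least 2-fold lower, against 8.21% of all gene names. Their median log2 ratio was -1.0 against 0.22 over all gene names. It was -1.41 to -1.06 with other scalings and -1.41 to -0.825 over all alternatives. *Alad*, which joins the first precursors into a ring, had relative signals of 1.54 in the control, 0.408 at 4 h, 1.26 at 20 h and 1.13 at 32 h, a 4 h log2 ratio of -1.91 ± 0.21. *Cpox*, a later oxidase of the pathway, was at -1.22 ± 0.20. *Alas1*, the rate-limiting enzyme of heme synthesis outside red cells, was at -0.020 ± 0.20 at 4 h and at 0.48 ± 0.20 and 0.33 ± 0.20 at 20 h and 32 h. The list's medians at the late times were 0.055 and 0.064.

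Genes of heme transport and binding were divided at 4 h, 2 higher and 1 lower of 8, against 11.0% and 8.21% of all gene names. Their median was -0.37 (-0.78 to -0.50 with other scalings and 0.0021 with the median over the detected probes of each gene). *Hpx*, hemopexin, a secreted heme carrier, had relative signals of 0.0730, 0.818, 0.0878 and 0.104. Its 4 h log2 ratio of 3.49 ± 0.29 lay within its spot error of that of *Hmox1* probe 1, but it rests on a dim control signal. *Slc48a1*, which moves heme out of lysosomes, had 11.6, 36.4, 10.3 and 11.1, a ratio of 1.64 ± 0.20. *Slc46a1*, a folate transporter that also carries heme, was 2.12-fold lower. All 3 were within 2-fold of the control at 20 h and 32 h.

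Of 10 genes of iron uptake and reduction, 1 was higher and 2 were lower at 4 h, against 11.0% and 8.21% of all gene names. *Slc11a2*, the divalent metal transporter that takes iron out of endosomes, was at 1.24 ± 0.20, and the metalloreductase genes *Steap1* and *Steap2* were at -1.39 ± 0.20 and -1.14 ± 0.20. The list's median of 0.16 turned negative with 3 of 5 other scalings. *Slc39a14*, which imports iron not bound to transferrin, had relative signals of 1.5, 1.51, 2.67 and 3.07 and was 1 of the 3 genes past 2-fold at 32 h (1.03 ± 0.20). The other 2 were *Hfe2* and *Bmp6*, both of the hepcidin axis, at least 3.33-fold and 4.02-fold higher than the control. Both were well above background at 32 h alone and dim there, with relative signals of 0.123 and 0.148. *Slc39a14*, *Hfe2* and *Bmp6* are named because the count is small, after their values were seen.

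Of the iron export and hepcidin list 3 genes were measurable at 4 h, and 0 passed 2-fold. Of 6 genes of iron sensing and delivery 0 passed 2-fold, 4 lay above and 2 below the control, and the median was 0.54 (0.14 to 0.42 with other scalings). *Aco1*, which encodes iron regulatory protein 1, lay below the control at 4 h (-0.93 ± 0.24), where *Ireb2* lay above it. Of 18 genes of mitochondrial iron and iron-sulfur assembly 0 were higher and 5 lower, against 11.0% and 8.21% of all gene names. Their median was -0.38 (-0.79 to -0.51 with other scalings and -0.79 to -0.18 over all alternatives). Among these, *Nfu1*, a carrier of iron-sulfur clusters, was at -1.79 ± 0.20, and *Nfs1*, the cysteine desulfurase, at -1.12 ± 0.20.

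Known regulators of *Hmox1* had the highest list median at 4 h, 0.91 (0.50 to 0.78 with other scalings). Of these, 3 of 7 were at least 2-fold higher, against 11.0% of all gene names. The 3 were the small Maf genes, partners of both Nrf2 and Bach1 on DNA. The study had already named them as raised by the cOS-pulse on these same arrays, together with *Nfe2l2* (as *Nrf2*) and *Hmox1* itself. Neither the list nor the 4 h rise of *Hmox1* is therefore an independent finding. *Mafk* had relative signals of 1.02, 3.46, 1.07 and 1.08, *Mafg* 21.3, 66.2, 22.5 and 22.8 and *Maff* 1.78, 4.38, 1.95 and 2.13, which gave 4 h log2 ratios of 1.76, 1.64 and 1.30, each ± 0.20. *Nfe2l2*, which encodes the activator Nrf2, was at 0.91 ± 0.20, and *Bach1*, which encodes the heme-sensing repressor of *Hmox1*, at 0.85 ± 0.20. At 20 h and 32 h the list's medians were 0.084 and 0.099.

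**Figure D5:**
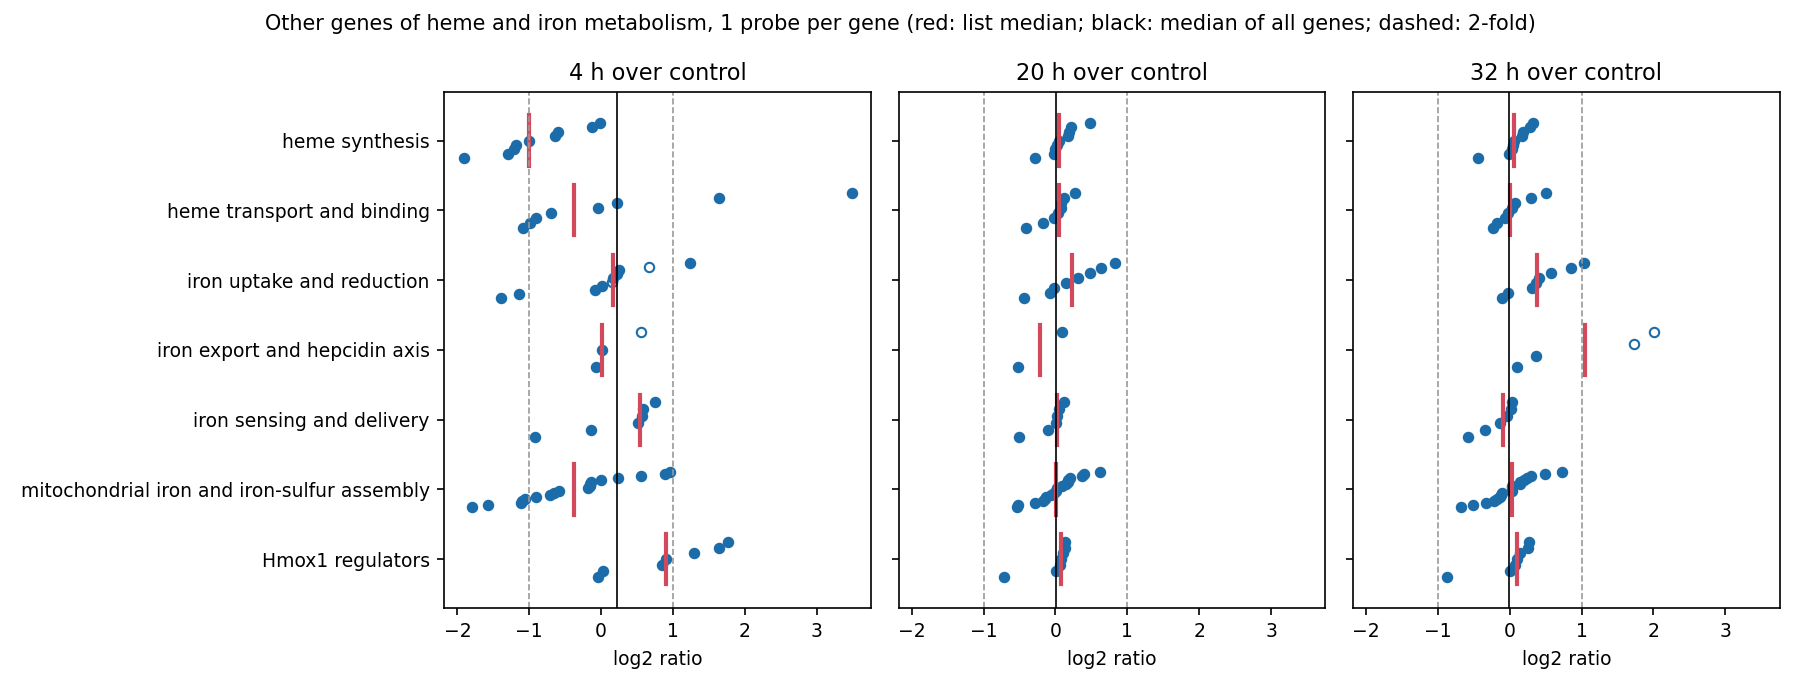
Log2 ratio over the control (horizontal axis) of the genes of each list at 4 h, 20 h and 32 h, 1 point per gene by its brightest probe, open where the ratio is a bound, with a red line at the list median, a black line at the median of all gene names and dashed lines at 2-fold. At 4 h heme synthesis lies lowest with a median of -1.0 and the *Hmox1* regulators highest at 0.91, and at 20 h all points lie within 2-fold of the control.

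The genes whose 3 log2 ratios over the control came nearest to the mean of the *Hmox1* probes, by Euclidean distance among 19695 other probes well above background on all arrays, were *Ppp1r32*, *Crabp2*, *Ccl25*, *Etnk2* and *Mtap1a*, at distances of 0.093, 0.24, 0.30, 0.33 and 0.33. Their 4 h log2 ratios were 2.93 to 3.23, beside 3.1 for *Hmox1*. With 3 ratios from 4 arrays and a shared control this likeness is a description only.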

How the data were processed

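RNA of 4 conditions was hybridized to one-color Mouse GE 4x44K v2 arrays, and the authors deposited spot intensities from Agilent Feature Extraction 10.7.3.1, from which the software had taken the local background and a spatial trend, with surrogates for spots not above background. A second deposited table holds these intensities over a constant for each array, as was checked spot by spot. Probe positions are mm9 per the file headers. SAM, named in the study's methods, was not repeated with 1 array per condition.

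Log2 processed signals were averaged over the spots of a probe without an outlier flag, and the array's 75th percentile was subtracted. Detection required the flag for well above background in 50% or more of a probe's spots. Where 1 array detected it, the ratio is a bound, taken against whichever is higher on the dim array, its own signal or the lowest detected one. The threshold was 2-fold. Errors of ratios combine the scanner software's errors of both spots, which cover the spot only. Precision is limited by having 4 arrays.

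The members and lists were chosen with earlier results of these data known. Text names all member probes, the up to 3 largest changes each way per list past 2-fold at 4 h, *Alas1*, *Aco1*, *Bach1* and *Nfe2l2*, and the 5 genes nearest to *Hmox1*. Some genes that this rule takes are withheld and not reported here. RefSeq (GRCm38.p6) was used for names alone, and 10 of 10 member accessions matched. Alternatives were 5 scalings (median, quantile, 75th percentile of probes detected on all arrays, 8 spike-in probes, none), normexp with an offset of 50, the deposited table, detection and outlier flags, thresholds of 1.5-fold and 3-fold and the median over a gene's probes. Counting genes in place of probes was added after the data were seen. The steps were tested on simulated data. Python 3.11.15 (numpy 2.4.6, pandas 2.3.3), R 4.3.3 and limma 3.58.1 were used.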

Additional observations from a re-analysis of the deposited data

Results flagged for a closer look

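*Slc40a1* lay above the control at 4 h and below it at 20 h and 32 h, with log2 ratios of 1.61, -1.56 and -1.81. The difference between these times was not tested, since each rests on 1 array, and the 3 ratios share the control array.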

How the results depend on the processing

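No paired analysis was possible because each condition has 1 array. Of 669 member ratios recomputed under alternatives, 587 moved by less than the median spot error of a log2 ratio (0.20), 82 by more, and 0 of those past 2-fold changed sign, and of 252 list medians 215 moved by less and 37 by more. Of the 5 member probes higher at 4 h, the count was 8 at 1.5-fold and 3 as genes, since the mean of the *Ftl1* probes is under 2-fold. With each of the 5 other scalings *Ftl1* probe 2 left the higher probes and *Blvra* probe 1 joined the lower ones. With normexp *Blvra* probe 2 left the lower ones. The 3 lower at 4 h and the 1 lower at 20 h became 0 at 3-fold, and the 1 lower at 32 h became 0 with normexp. For the lists at 4 h, the 6 higher genes became 10 with no detection filter and 10 with the flag for positive and significant signals, and 12 at 1.5-fold. The 13 lower became 21 with median scaling, 21 with spike-in scaling, 8 with normexp, 22 at 1.5-fold and 2 at 3-fold. At 20 h the 0 higher became 1 with no scaling, 1 with spike-in scaling and 3 at 1.5-fold, and the 0 lower became 1 with no detection filter, 1 with that flag and 1 at 1.5-fold. At 32 h the 3 higher became 5 at 1.5-fold and 1 where both arrays had to be well above background, and the 0 lower became 2 at 1.5-fold. Other thresholds and filters admit other genes by construction, and for the scalings and normexp the cause was not tested. The dim probes of *Ireb2*, *Slc40a1* and *Tfrc* probe 1 are limited by their signal over background.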
